A study of Mus musculus with 8 samples.

Results

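The 9 genes described here encode brakes of mTORC1, the protein kinase complex that drives protein synthesis, together with the repressors of translation that it controls, its kinase and its scaffold. They were taken by symbol from a table of 48328 genes: Ddit4, Ddit4l, Eif4ebp1, Eif4ebp2, Sesn2, Deptor, Mtor, Rptor and Akt1s1. Ddit4 and Ddit4l were chosen by their FPKM in the 2 genotypes, which differed in opposite directions, so their genotype values are a description and carry no test. The other 7 were taken for their place in the pathway. RNA of the tibialis anterior, a muscle at the front of the shin made mostly of fast fibres, was sequenced in K320E-skm mice and in wild-type mice, both C57BL/6J and 24 months old, with 4 libraries each. The K320E allele changes Twinkle, the DNA helicase with which mitochondria copy their genome. In each genotype 2 libraries were labelled male and 2 female. The labels used here name neither the promoter nor the Cre line behind the K320E-skm allele. Nothing in the labels says whether the samples of a group were collected or prepared together, so the p-values reflect only how far these samples spread, which may be technical.

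In muscle, mTORC1 adds phosphate to S6 kinase and to the 4E-binding proteins (4E-BPs) when growth factors and amino acids are plentiful. Unphosphorylated 4E-BPs hold the cap-binding protein eIF4E and block the start of translation. REDD1, encoded by Ddit4, is a stress-induced protein that acts through the TSC complex to turn mTORC1 off, and it is induced by low oxygen, glucocorticoids, fasting and the stress factor ATF4. REDD2, encoded by Ddit4l, is its paralogue and is strongly expressed in skeletal muscle. Sestrin 2 is a leucine sensor that holds back the amino acid branch, and DEPTOR and PRAS40 (encoded by Akt1s1) are inhibitors bound to the complex. Much of this pathway runs by phosphorylation, which RNA levels do not show.

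Because Ddit4 and Ddit4l are the paralogues with opposite differences, the DNA just upstream of each start is shown. Both come from RefSeq promoter windows of GRCm38.p6, a table that held 7 of the 9 genes. The Ddit4 stretch, chr10:59951835-59952020 on the minus strand, ends where the GENCODE M21 transcript starts. The Ddit4l stretch, chr3:137623422-137623671 on the plus strand, ends at the start of the protein-coding transcript and lies within an intron of a non-coding transcript of the same gene that starts further upstream. Capitals mark the matches described after them.
Ddit4: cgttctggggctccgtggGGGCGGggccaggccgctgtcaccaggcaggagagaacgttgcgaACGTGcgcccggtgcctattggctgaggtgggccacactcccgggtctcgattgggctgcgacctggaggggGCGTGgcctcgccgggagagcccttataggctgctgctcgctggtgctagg
Ddit4l: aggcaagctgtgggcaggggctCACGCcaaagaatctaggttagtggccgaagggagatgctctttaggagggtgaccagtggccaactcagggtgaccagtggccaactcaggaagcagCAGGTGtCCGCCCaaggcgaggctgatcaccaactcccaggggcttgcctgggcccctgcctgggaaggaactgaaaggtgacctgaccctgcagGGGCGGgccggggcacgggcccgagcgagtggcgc

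Motifs were searched on both strands in the 250 bases before each RefSeq start. Upstream of Ddit4 there was 1 match each to ACGTG and GCGTG, the cores bound by hypoxia-inducible factors, and 1 to the GC box GGGCGG. Upstream of Ddit4l there was no ACGTG, 1 match to GCGTG (read as CACGC), 2 GC boxes and 1 E-box, CANNTG, the motif bound by myogenic factors. Of 32851 windows of this length, 16.6% held ACGTG, 28.2% GCGTG, 32.7% GGGCGG and 66.2% CANNTG. Neither gene had the ATF4 core TGATGNAA (in 3.45% of windows), the glucocorticoid receptor core AGAACA (in 16.1%) or TATAAA (in 12.4%) in this window. The 2 windows were rich in G and C, at 70.0% for Ddit4 and 65.2% for Ddit4l, against a median of 52.4% over all windows. These matches describe the letters only.

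The values are FPKM, fragments per length of transcript, scaled to the mapped fragments of a library, and the depth in fragments is unknown. Over the 8 libraries FPKM summed to between 731824 and 858029. Ckm, the muscle creatine kinase, was at 5421 to 7408 FPKM in every library. Twnk, which encodes Twinkle, measured 3.82, 4.93, 5.06 and 4.66 FPKM in K320E-skm 1 to 4, against 2.16, 2.40, 2.21 and 2.70 FPKM in wild-type 1 to 4 (p = 0.0286 in a two-sided exact permutation test, which cannot go lower with 4 against 4). K320E-skm 4, labelled male, had 10.2 FPKM of the female-specific RNA Xist, against 0.0138 to 0.0226 FPKM in the other libraries labelled male, and 0.0117 FPKM of the Y-linked gene Ddx3y, against 14.3 to 21.7 FPKM. Its sex label therefore goes against its transcripts, and sex was left out of the genotype fit. Most genes read slightly lower in K320E-skm muscle: the median log2 fold change of the 10521 tested genes was −0.14. Wild-type 1 read highest, with a median-ratio scaling factor of 1.27, against 0.906 to 1.03 in the other libraries. In bulk tissue, fewer cells of a type and less RNA per cell cannot be told apart.

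**Figure D1:**
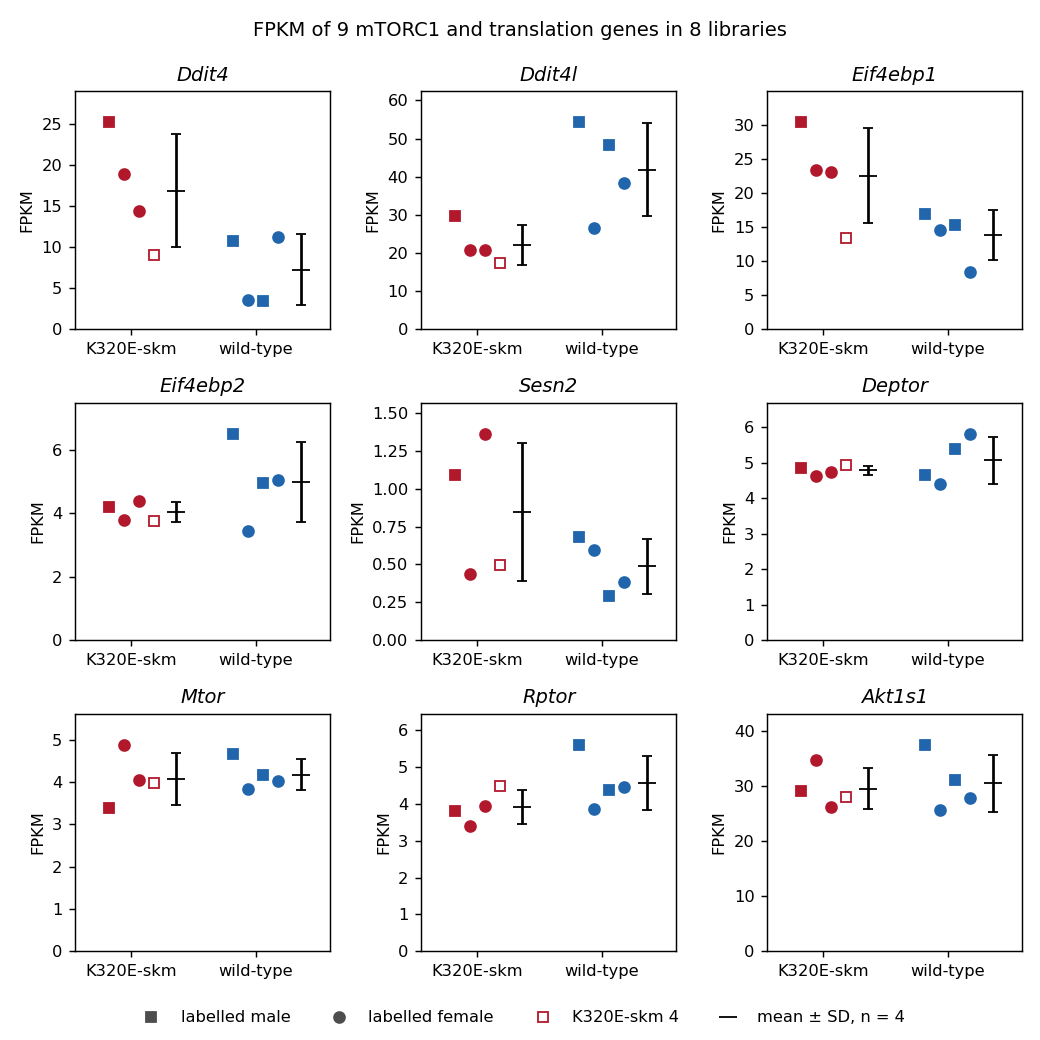
FPKM of the 9 genes in each library, with K320E-skm on the left and wild-type on the right of each panel; squares were labelled male, circles female, the open square is K320E-skm 4, and black bars give mean ± SD (n = 4). Ddit4 and Eif4ebp1 had 3 K320E-skm libraries above all wild-type libraries, Ddit4l had 3 below them, and the genotypes overlapped for all 9 genes.

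REDD1 and REDD2 RNA differed in opposite directions. Ddit4 (ENSMUSG00000020108, chr10:59949669-59951834, minus strand, GRCm38) measured 25.2, 18.9, 14.4 and 9.0 FPKM in K320E-skm 1 to 4, against 10.8, 3.50, 3.43 and 11.3 FPKM in wild-type 1 to 4. K320E-skm 1, 2 and 3 were above every wild-type library, while K320E-skm 4 lay below wild-type 1 and 4, so the genotypes overlapped. The wild-type libraries themselves fell into a high pair, 1 and 4, and a low pair, 2 and 3. Mean Ddit4 was 16.9 ± 6.86 FPKM in K320E-skm muscle, against 7.24 ± 4.37 FPKM in wild-type muscle (SD, n = 4 each), a ratio of means of 2.33. On the scale of log2(FPKM + 1) its fold change was 1.20 (SE 0.40).

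Ddit4l (ENSMUSG00000046818, chr3:137621612-137628333, plus strand) measured 29.7, 20.6, 20.8 and 17.2 FPKM in K320E-skm 1 to 4, against 54.2, 26.5, 48.3 and 38.3 FPKM in wild-type 1 to 4. Here K320E-skm 2, 3 and 4 lay below every wild-type library, and K320E-skm 1 overlapped with wild-type 2. The means were 22.1 ± 5.35 FPKM in K320E-skm muscle, against 41.8 ± 12.1 FPKM in wild-type muscle (SD, n = 4 each), a ratio of 0.528 and a log2 fold change of −0.87 (SE 0.23). After median-ratio rescaling, which brings the libraries to a common level, the log2 fold changes were 1.36 (SE 0.40) for Ddit4 and −0.70 (SE 0.23) for Ddit4l.

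The balance between the paralogues can be read within a library, where the scale of the library cancels. Ddit4 made up 45.9%, 47.7%, 40.9% and 34.3% of the summed FPKM of the pair in K320E-skm 1 to 4, against 16.6%, 11.7%, 6.63% and 22.7% in wild-type 1 to 4. As a ratio, Ddit4 over Ddit4l was 0.744 ± 0.174 in K320E-skm muscle, against 0.174 ± 0.0956 in wild-type muscle (SD, n = 4 each), and all 4 K320E-skm libraries, from 0.522 to 0.913, lay above all 4 wild-type libraries, from 0.0710 to 0.294. Since the pair was chosen for its opposite differences, this separation follows from the choice and is no further support. The summed level of the pair overlapped between the genotypes, at 38.9 ± 11.99 FPKM in K320E-skm muscle, against 49.1 ± 14.4 FPKM in wild-type muscle. The transcripts of the genes share no stretch of 15 bases, and no other gene's exons overlap theirs in GENCODE M21.

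**Figure D2:**
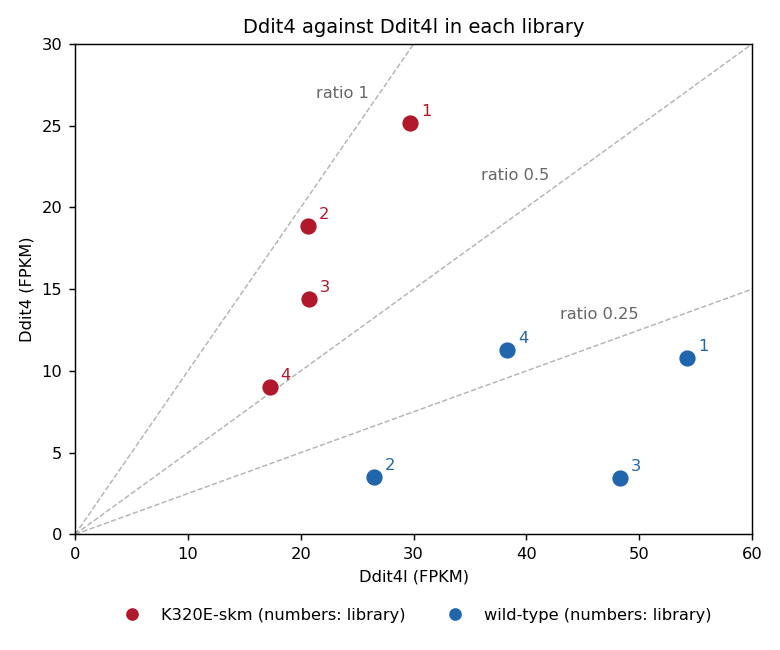
Ddit4 against Ddit4l (FPKM) in each library, with dashed lines at Ddit4 over Ddit4l ratios of 0.25, 0.5 and 1; numbers are the library numbers. The K320E-skm libraries lie at ratios of 0.522 to 0.913 and the wild-type libraries at 0.0710 to 0.294.

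Eif4ebp1 (ENSMUSG00000031490, chr8:27260329-27276674) encodes 4E-BP1, a repressor that is itself a target of ATF4. Its levels were 30.4, 23.4, 23.1 and 13.3 FPKM in K320E-skm 1 to 4, against 17.0, 14.5, 15.2 and 8.44 FPKM in wild-type 1 to 4. K320E-skm 1 to 3 were above every wild-type library, and K320E-skm 4 was below 3 of the 4. The means were 22.5 ± 7.01 FPKM in K320E-skm muscle, against 13.8 ± 3.71 FPKM in wild-type muscle (SD, n = 4 each), a ratio of 1.63. The log2 fold change of 0.66 (SE 0.26) did not pass the threshold in limma, with an unadjusted p of 0.0306 and a Benjamini-Hochberg adjusted p of 0.308 over all tested genes (range 0.245 to 0.945 over the main and 17 other settings). The exact two-sided permutation p was 0.114. After rescaling the log2 fold change was 0.83 (SE 0.26, limma adjusted p = 0.386).

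Eif4ebp2 (ENSMUSG00000020091, chr10:61428491-61452661), which encodes the related repressor 4E-BP2, measured 4.21, 3.78, 4.39 and 3.76 FPKM in K320E-skm 1 to 4, against 6.51, 3.44, 4.96 and 5.05 FPKM in wild-type 1 to 4. Wild-type 2 was the lowest of all 8 libraries and wild-type 1 the highest, so the K320E-skm range lay inside that of wild-type muscle. The log2 fold change was −0.23 (SE 0.15, limma adjusted p = 0.488), and it was −0.080 (SE 0.13) after rescaling, −0.11 (SE 0.13) without wild-type 1 and −0.36 (SE 0.13, adjusted p = 0.2497) without wild-type 2. Eif4ebp1 exceeded Eif4ebp2 in every library, by 7.21, 6.19, 5.26 and 3.54 times in K320E-skm 1 to 4, against 2.61, 4.22, 3.07 and 1.67 times in wild-type 1 to 4. The summed RNA of the 3 Eif4ebp genes, set against Eif4e, which encodes their target, gave ratios of 1.25 ± 0.379 in K320E-skm muscle, against 0.832 ± 0.245 in wild-type muscle (SD, n = 4 each), with overlap. These ratios were chosen after the values were seen and were not tested.

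Sesn2 (ENSMUSG00000028893, chr4:132492032-132510501) was the lowest of the 9 genes and the only one below the filter for testing, FPKM of 1 or more in at least 4 libraries. It measured 1.09, 0.439, 1.36 and 0.495 FPKM in K320E-skm 1 to 4, against 0.683, 0.598, 0.289 and 0.384 FPKM in wild-type 1 to 4. K320E-skm 1 and 3 were above every other library, and K320E-skm 2 and 4 lay within the wild-type range. The means were 0.847 ± 0.454 FPKM in K320E-skm muscle, against 0.488 ± 0.183 FPKM in wild-type muscle (SD, n = 4 each, exact two-sided permutation p = 0.257). Its transcripts share 4 sequences of 20 bases, which may overlap one another, with those of the paralogue Sesn3, and none of 30. Whether any fragments matched both genes was not tested.

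None of the genes of the complex itself passed the test. Mtor (ENSMUSG00000028991, chr4:148448611-148557683), the kinase, measured 3.39, 4.89, 4.06 and 3.99 FPKM in K320E-skm 1 to 4, against 4.68, 3.83, 4.17 and 4.04 FPKM in wild-type 1 to 4. The highest and the lowest library were both K320E-skm. Its log2 fold change was −0.03 (SE 0.12, limma adjusted p = 0.906), and 0.11 (SE 0.09) after rescaling.

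Rptor (ENSMUSG00000025583, chr11:119602905-119899576) encodes raptor, which brings substrates to the kinase. It measured 3.81, 3.40, 3.94 and 4.49 FPKM in K320E-skm 1 to 4, against 5.60, 3.85, 4.37 and 4.45 FPKM in wild-type 1 to 4. K320E-skm 1 and 2 were the lowest libraries and wild-type 1 the highest, and the other 5 lay between 3.85 and 4.49 FPKM. The log2 fold change was −0.18 (SE 0.13, limma adjusted p = 0.511), and it was −0.030 (SE 0.10) after rescaling and −0.091 (SE 0.11) without wild-type 1.

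The inhibitors bound to the complex did not pass either. Deptor (ENSMUSG00000022419, chr15:55112317-55259271) measured 4.84, 4.63, 4.75 and 4.92 FPKM in K320E-skm 1 to 4, against 4.66, 4.40, 5.39 and 5.82 FPKM in wild-type 1 to 4. The K320E-skm libraries lay close together, with a coefficient of variation of 2.63% against 12.9% in wild-type muscle, and inside the wild-type range (log2 fold change −0.06, SE 0.11, limma adjusted p = 0.791). Akt1s1 (ENSMUSG00000011096, chr7:44848991-44855421) measured 29.1, 34.7, 26.1 and 27.9 FPKM in K320E-skm 1 to 4, against 37.5, 25.6, 31.0 and 27.8 FPKM in wild-type 1 to 4. Its K320E-skm range also lay inside that of wild-type muscle (log2 fold change −0.04, SE 0.15, limma adjusted p = 0.905). The ratio of Akt1s1 plus Deptor to Mtor was 8.47 ± 1.06 in K320E-skm muscle, against 8.47 ± 0.508 in wild-type muscle (SD, n = 4 each). Exons of Deptor, Rptor and Akt1s1 overlap those of genes on the opposite strand, and Akt1s1 also holds a microRNA gene on its own strand. The library kit was stranded, but the strand setting of the counting is not stated, so fragments of these neighbours may be included.

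Of the 6 genes tested for genotype, none passed the adjusted threshold in limma and 1, Eif4ebp1, had an unadjusted p under 0.05. Over all tested genes, 0.019% passed the adjusted threshold, 0.0095% higher and 0.0095% lower in K320E-skm muscle. At the unadjusted threshold the share was 14.7%, with 1.07% higher and 13.6% lower. The genotypes did not overlap for 0 of these 6, against 9.92% of all tested genes. After rescaling they again did not overlap for 0 of the 6, against 5.97% of all tested genes, with K320E-skm above in 2.86% and below in 3.11%. Of the 6, Eif4ebp1, Deptor, Mtor and Akt1s1 had log2 fold changes above the median of all tested genes, and Eif4ebp2 and Rptor below it. Deptor, Mtor and Akt1s1 had fold changes under 0 as deposited and above 0 after rescaling, at 0.08, 0.11 and 0.13 (SE 0.13, 0.09 and 0.10).

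**Figure D3:**
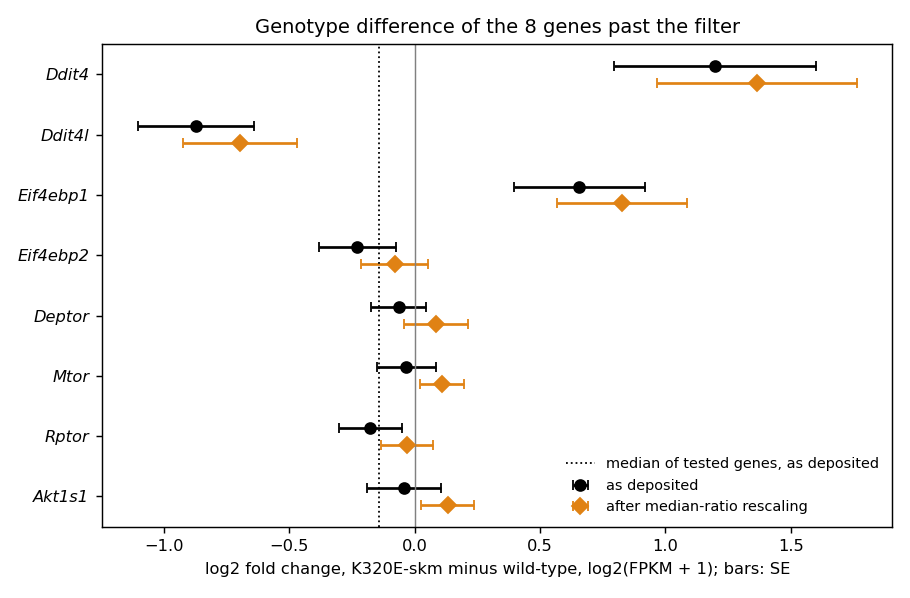
Log2 fold change, K320E-skm minus wild-type, on the scale of log2(FPKM + 1) with SE for the 8 genes past the filter, as deposited (circles) and after median-ratio rescaling (diamonds); the dotted line is the median of all tested genes, −0.14. Ddit4, Ddit4l and Eif4ebp1, at 1.20, −0.87 and 0.66, lie furthest from that line.

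The order of levels, which FPKM allow because they are per length, differed at the top. Akt1s1 led in K320E-skm muscle at 29.5 ± 3.72 FPKM, followed by Eif4ebp1 at 22.5, Ddit4l at 22.1 and Ddit4 at 16.9 FPKM. Each of these overlapped with its neighbour in that order. In wild-type muscle Ddit4l led at 41.8 ± 12.1 FPKM, followed by Akt1s1 at 30.5, Eif4ebp1 at 13.8 and Ddit4 at 7.24 FPKM, where Ddit4l overlapped with Akt1s1 and Eif4ebp1 with Ddit4, while every Akt1s1 value was above every Eif4ebp1 value. Mean Eif4ebp2, Deptor, Mtor and Rptor lay between 3.91 and 5.07 FPKM in both genotypes, and Sesn2 was last. In wild-type muscle these 4 genes overlapped with one another. In K320E-skm muscle every Deptor value was above every Eif4ebp2 and Rptor value, and the other pairs of the 4 overlapped. Ranked among the tested genes of its own library, Ddit4 was above 89.4%, 85.0%, 82.6% and 72.8% of them in K320E-skm 1 to 4, against 70.1%, 40.6%, 43.2% and 76.3% in wild-type 1 to 4. Ddit4l was above 84.8% to 90.9% of genes in K320E-skm libraries, against 89.4% to 93.5% in wild-type libraries.

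Sex was not used to choose the genes, so its labels could be compared. None of the 8 genes passed in limma between 4 libraries labelled male and 4 labelled female (smallest unadjusted p = 0.0854, adjusted p = 1.00), where 0.0% of all tested genes passed and 2.7% had an unadjusted p under 0.05. Libraries labelled male included K320E-skm 4, and the tested gene Xist did not pass either. This fit therefore cannot show that the genes lack a sex difference. The smallest p was for Ddit4l, at 37.4 ± 17.0 FPKM in libraries labelled male, against 26.6 ± 8.29 FPKM in those labelled female (log2 difference 0.40, SE 0.21). Without K320E-skm 4, whose label goes against its transcripts, the difference was 0.60 (SE 0.17, limma unadjusted p = 0.00542, adjusted p = 0.602), in a fit where 0.0481% of all tested genes passed. In the same fit Eif4ebp1 differed by 0.45 (SE 0.19, limma unadjusted p = 0.0395, adjusted p = 0.976). Ddit4 differed by −0.08 between the labels (SE 0.42), and by 0.21 (SE 0.41) without K320E-skm 4. The genotype difference was also tested for a dependence on sex label, and no gene passed (limma unadjusted p from 0.188 to 0.939, where 2.27% of all genes were under 0.05 and 0.019% passed after adjustment). With 2 libraries in each combination of labels, only a large dependence could be seen. This test used the labels as given. By its transcripts K320E-skm 4 would count as female, which leaves fewer male libraries in K320E-skm than in wild-type muscle. With sex label as a term and without K320E-skm 4, the genotype log2 fold change was 1.48 for Ddit4 and −0.67 for Ddit4l.

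RNA of other cell types varied between libraries, and as deposited the summed markers of 1 of the lists looked at separated the genotypes. The 4 markers of smooth muscle and pericytes summed to 77.3, 101.5, 87.9 and 90.7 FPKM in K320E-skm 1 to 4, against 119.2, 115.0, 104.9 and 104.7 FPKM in wild-type 1 to 4, and 0 of the 4 had a higher mean in K320E-skm muscle. Of all single tested genes, 9.59% also lay below in K320E-skm muscle without overlap, and 79.5% had log2 fold changes below 0. In the endothelium, fibroblast, adipocyte, satellite cell, erythroid and lymphocyte lists no marker had a higher mean in K320E-skm muscle either. Among nerve and Schwann cell markers 1 had a higher mean, and among muscle fibre markers 3. The sums given are not rescaled, and wild-type 1, with the highest smooth muscle and pericyte sum, had the highest median-ratio scaling factor, 1.27. The factor of K320E-skm 2 was 1.01. Divided by these factors, the wild-type 1 sum falls below that of K320E-skm 2, so this list separated the genotypes only as deposited. The summed FPKM of 6 macrophage markers was 52.5, 49.3, 39.8 and 19.0 in K320E-skm 1 to 4, against 59.3, 39.2, 16.2 and 18.2 in wild-type 1 to 4. In K320E-skm muscle it ran in the same order of libraries as Ddit4 and Eif4ebp1, and in wild-type muscle it did not. All 6 macrophage markers had a higher mean in K320E-skm muscle, though each overlapped between the genotypes, and none was at 0 in any library. The sum of 4 adipocyte markers was 20.9 to 32.2 FPKM in K320E-skm libraries, against 61.5, 98.2, 7.54 and 30.1 FPKM in wild-type 1 to 4. The sum of 5 slow fibre markers was 23.7 to 101.4 FPKM in K320E-skm libraries, against 32.7 to 64.0 FPKM in wild-type libraries. All 5 had a higher mean in K320E-skm muscle, but for Myh7, Tnnt1, Tnni1 and Tnnc1 only K320E-skm 3 was above every wild-type library. For these genes the other K320E-skm libraries lay within the wild-type range. Myl3 was at 53.0 and 60.6 FPKM in K320E-skm 3 and 4, above every wild-type library. In K320E-skm 1 and 2 it was at 8.825 and 13.75 FPKM, below every wild-type library (17.1 to 48.5 FPKM). The table lists Myh4, a fast myosin, at 0 for K320E-skm 2, 3 and 4 and for wild-type 4, against 2965 to 4357 FPKM in the other libraries. Where Myh4 read 0, the muscle fibre markers Mylpf and Tnnt3 were at 4080 to 5946 and 6848 to 9410 FPKM. Why Myh4 read 0 there was not tested. The part of other cell and fibre types in the differences was not tested. Without wild-type 1 and 2, the libraries with the most adipocyte RNA, the log2 fold change was 1.19 for Ddit4 and −0.96 for Ddit4l (SE 0.47 and 0.21).

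The rest of the pathway was read from 9 lists of 123 genes, of which 112 were tested and 11 were below the filter. None passed the adjusted threshold in limma, where the smallest adjusted p was 0.271, and 13 had an unadjusted p under 0.05, 3 higher and 10 lower in K320E-skm muscle. That is 11.6% of the listed genes, against 14.7% of all tested genes. The median log2 fold change of the listed genes was −0.12, against −0.14 over all tested genes. Genotypes did not overlap for 7 listed genes, with K320E-skm above in 1 (0.893%, against 0.333% of all tested genes) and below in 6 (5.36%, against 9.59%). After rescaling, Fkbp5, Rictor and Rragd still did not overlap, while Rraga, Gsk3b and Eif2ak1 did. Eef2, with K320E-skm above, and Bmt2, which encodes a sensor of S-adenosylmethionine, with K320E-skm below, overlapped as deposited and not after rescaling, which made 2 above and 3 below in all. These 6 genes, and Bmt2, Cebpd, Nr3c1 and Egln3, are named after their values were seen. All fold changes that follow are as deposited, and those of Tsc2, Lamtor1, Sec13 and Rps6 were above 0 after rescaling.

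Among 6 tested partners of the mTOR complexes the median was −0.15. The most abundant were Mapkap1, a subunit of mTORC2, at −0.19 and Tti1, a factor for assembly of such kinases, at −0.27. Rictor, the defining subunit of mTORC2, measured 2.23, 2.35, 2.18 and 2.35 FPKM in K320E-skm 1 to 4, against 3.73, 2.82, 3.27 and 2.81 FPKM in wild-type 1 to 4. All 4 K320E-skm libraries lay below all wild-type ones, and its log2 fold change of −0.34 (SE 0.11) had a limma adjusted p of 0.289. In the TSC complex, the target of REDD1, and its GTPase Rheb the median of 4 tested genes was −0.08, with Rheb, the direct activator of mTORC1, at −0.35 and Tsc2 at −0.08.

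Rag GTPases and amino acid sensors, which bring mTORC1 to the lysosome, had a median of −0.06 over 25 tested genes. The most abundant were Lamtor1 at −0.06 and Sec13 at −0.03. Rragd, which encodes RagD, measured 20.4, 23.3, 19.1 and 22.5 FPKM in K320E-skm 1 to 4, against 31.2, 26.5, 25.8 and 31.95 FPKM in wild-type 1 to 4, without overlap (log2 fold change −0.42, SE 0.12, limma adjusted p = 0.278). Rraga, which encodes its partner RagA, did not overlap either, at −0.22 (SE 0.11, adjusted p = 0.362). Insulin and PI3K-Akt genes had a median of −0.21 over 16 tested genes, with the kinases Akt2 at −0.22 and Akt1 at 0.28. In this list Gsk3b, a kinase that Akt inhibits, measured 5.59, 5.82, 6.18 and 6.02 FPKM in K320E-skm 1 to 4, against 7.30, 7.30, 7.10 and 7.53 FPKM in wild-type 1 to 4, without overlap (log2 fold change −0.27, SE 0.09, limma adjusted p = 0.292).

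Downstream of mTORC1, 13 tested substrates and effectors had a median of −0.13, with the elongation factor Eef2 at 0.12 and the ribosomal protein Rps6 at −0.03. After rescaling Eef2 was at 0.30 (SE 0.10, limma adjusted p = 0.426). The 12 tested genes of eIF4F and cap binding had a median of −0.20, with the helicase Eif4a2 at −0.24 and Eif4g2 at −0.43 (SE 0.18, limma adjusted p = 0.327). Eif4g2 was at −0.27 (SE 0.14) without wild-type 2 and at −0.25 (SE 0.19) after rescaling. For eIF2, its exchange factor and its kinases, the other main control of translation start, the median of 14 tested genes was −0.09, with the subunits Eif2s2 at −0.25 and Eif2s3x at 0.06. Eif2ak1, the kinase that relays mitochondrial stress to eIF2, lay lower without overlap at −0.26 (SE 0.12, limma adjusted p = 0.343).

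The last lists hold genes that respond to known inducers of Ddit4. Glucocorticoid-responsive genes had a median of 0.09 over 10 tested genes, with Tsc22d3 at 0.10 and Sgk1 at −0.24. In this list Fkbp5, a co-chaperone of the glucocorticoid receptor, measured 9.30, 10.9, 12.8 and 7.88 FPKM in K320E-skm 1 to 4, against 6.28, 6.38, 5.79 and 5.12 FPKM in wild-type 1 to 4. Each K320E-skm library was above each wild-type one, and its log2 fold change of 0.69 (SE 0.15) had a limma adjusted p of 0.271. The transcription factor Cebpd was at a mean of 7.17 ± 1.90 FPKM in K320E-skm muscle, against 4.77 ± 1.03 FPKM in wild-type muscle (SD, n = 4 each, limma adjusted p = 0.308). For Cebpd, K320E-skm 4 lay within the wild-type range, at 4.86 FPKM. At an unadjusted limma p under 0.05, 2 genes of this list of 10 were higher and 1 was lower. Over all tested genes 1.07% were higher and 13.6% lower at that threshold. The lower one was Nr3c1, which encodes the glucocorticoid receptor. Its mean was 14.74 ± 2.47 FPKM in K320E-skm muscle, against 18.85 ± 2.92 FPKM in wild-type muscle (limma adjusted p = 0.34). Hypoxia-responsive genes had a median of −0.19 over 12 tested genes, with Ldha at −0.19 and Bnip3 at −0.20. In that list the oxygen-sensing hydroxylase Egln3 was at a mean of 10.3 ± 3.76 FPKM in K320E-skm muscle, against 5.64 ± 1.06 FPKM in wild-type muscle (limma adjusted p = 0.289). Its level in K320E-skm 4, 5.8 FPKM, lay within the wild-type range.

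**Figure D4:**
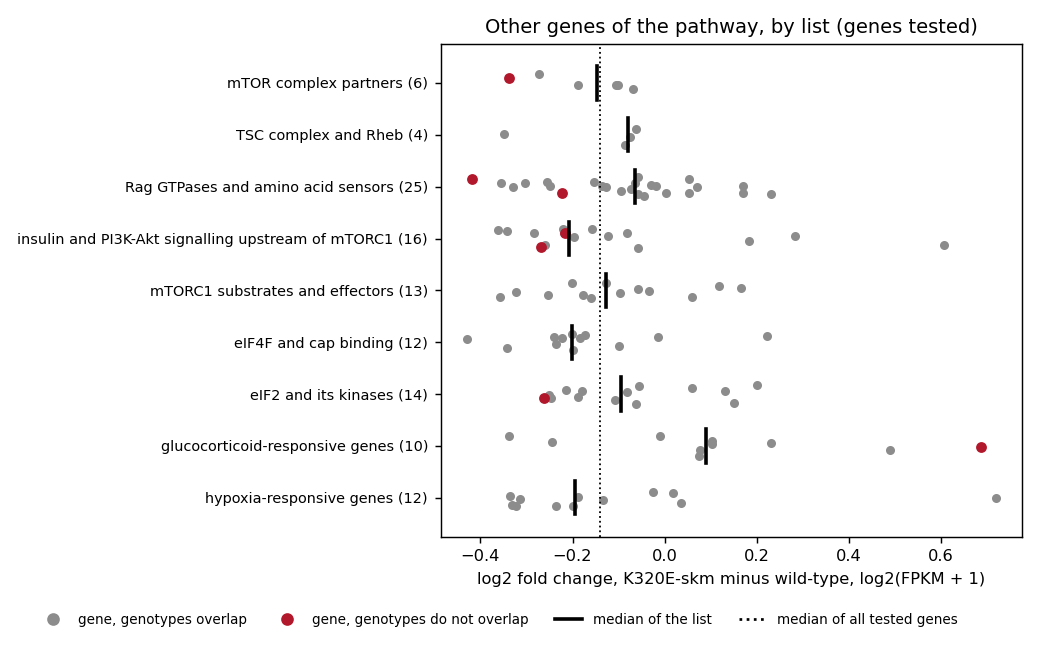
Log2 fold change, K320E-skm minus wild-type, of 112 tested pathway genes in 9 lists, with the number tested in parentheses; black ticks are list medians and the dotted line is the median of all tested genes, −0.14. Red points are the 7 genes whose genotypes do not overlap, of which 1, Fkbp5 at 0.69, is higher in K320E-skm muscle.

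Genes with the most similar pattern were found by the root mean square difference, over the 8 libraries, between deviations of log2(FPKM + 1) from each gene's own mean, among 9599 tested protein-coding genes. For Ddit4l the nearest were Gdap1, a protein of the mitochondrial outer membrane, at 0.17, the amino acid transporter gene Slc16a10 at 0.17 and the potassium channel gene Kcng4 at 0.18, where the median over all genes was 0.515. Slc16a10 measured 3.96, 2.61, 2.70 and 3.19 FPKM in K320E-skm 1 to 4, against 8.33, 3.38, 6.62 and 5.38 FPKM in wild-type 1 to 4, high and low in nearly the same libraries as Ddit4l. Ddit4 had no close match: the nearest genes, Gm13889, Adig and Pla2g12a, were at 0.51, 0.52 and 0.56, against a median of 0.91. Since Ddit4 and Ddit4l were chosen for their genotype differences, genes near them differ between the genotypes too.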

How the data were processed

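Total RNA of the tibialis anterior from 4 K320E-skm and 4 wild-type mice was sequenced with a stranded kit, per the labels. The authors deposited FPKM in 1 table, made with CASAVA, TopHat2 2.0.10 and Cufflinks 2.1.1 on mm10, per the submitters' processing notes; no source used here states the annotation or the strand setting. All 8 columns were matched by name. GENCODE M21 (GRCm38, the same build) named 47864 of 48328 IDs. The lowest FPKM gave relative depths of 1.00 to 1.30. For K320E-skm 1 the estimate used 3200 genes, with a share of 1.0 at the commonest value. In the other libraries it used 1226 to 1422 genes, with shares of 0.217 to 0.27, so the estimate for K320E-skm 1 may not compare with theirs.

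log2(FPKM + 1) was fitted with limma 3.58.1 in R 4.3.3 (genotype only, trend, two-sided) on the 10521 genes that reached 1 FPKM in 4 or more libraries, adjusted by Benjamini-Hochberg over all of them, threshold 0.05. The pseudocount of 1 shrinks fold changes of low genes. The fit was tested on simulated data. Single values were compared by exact permutation of 4 against 4. Sex label and interaction fits were alike. Of each pathway list, the 2 genes with the highest mean FPKM were named where none passed. The members, lists and settings were chosen with earlier results of these data known. Same-numbered libraries were not taken as pairs. One gene of the lists is counted but not reported here by name. Figures used matplotlib 3.10.9.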

Additional observations from a re-analysis of the deposited data

Results flagged for a closer look

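Over 37 genes and 74 groups of 4 libraries, 3 groups had 1 library far from the other 3, and chance alone flags about 1 group in 20, so the number is no more than chance gives. Akt2 was at 48.4 FPKM in K320E-skm 2, against 33.4 to 35.2 FPKM in the other K320E-skm libraries. Eif4a2 was at 103.5 FPKM in K320E-skm 2, against 89.1 to 90.6 FPKM. Sgk1 was at 52.4 FPKM in K320E-skm 3, against 66.7 to 69.5 FPKM. None of the 9 mTORC1 and translation genes had such a library.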

How the results depend on the processing

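The number of genes past the threshold over the whole table was 2 as fitted, 1 with a filter of 5 FPKM, and 0 to 3 when each library was left out in turn, with 0 without K320E-skm 2 and without K320E-skm 3 and 3 without K320E-skm 4. None of the 6 genes tested for genotype, of the lists, or of the 8 in the sex label and interaction fits passed under any setting run. Over all settings the log2 fold change ranged from 0.96 to 1.48 for Ddit4 and from −1.07 to −0.67 for Ddit4l. Of 34 single genes, 26 kept their direction throughout and 8 did not; the cause was not tested. With median-ratio rescaling and with quantile normalization, log2 fold changes turned positive, at 0.085 and 0.087 for Deptor, 0.11 and 0.11 for Mtor, 0.13 and 0.12 for Akt1s1, 0.12 and 0.12 for Lamtor1, 0.14 and 0.058 for Rps6, 0.14 and 0.14 for Sec13, and 0.079 and 0.080 for Tsc2. The Ddit4 interaction became 0.099 and 0.062. Other settings were added after seeing the data. With sex label as a term and without K320E-skm 4, Akt1s1 was at 0.012, Rps6 at 0.0083, Sec13 at 0.034 and Eif2s3x at −0.12. Without wild-type 1 and 2, Lamtor1 was at 0.044, Rps6 at 0.19 and Sec13 at 0.0032. With each library left out in turn, the range was −0.11 to 0.034 for Mtor, −0.12 to 0.060 for Akt1s1, −0.086 to 0.25 for Eif2s3x, −0.12 to 0.0003 for Lamtor1, −0.13 to 0.063 for Rps6, −0.12 to 0.070 for Sec13, −0.37 to 0.21 for the Ddit4 sex difference and −0.79 to 0.65 for the Ddit4 interaction, where an arm with 1 library is assumed to vary like the others. With the replicate number as a block, 2 genes of the table and 0 of the 6 were called. Same-numbered libraries correlated at 0.02 to 0.16 and 3 of 4 matched their own number best. The numbers were not taken as pairs in the main fit, and whether they pair is not settled. Depth in fragments is unknown, so no counting error can be given for low genes such as Sesn2.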
